A study of Mus musculus with 10 samples.

Results

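Genes of the cell cycle and of mitosis were followed in whole testes of 10 day old mice. They were 52 genes chosen by name from the arrays' annotation and divided into 19 cyclins, cyclin-dependent kinases (CDKs), their inhibitors and adaptors, 14 genes of S phase and 19 genes of mitosis. Of these, 49 had a probe set bright enough to be tested, of 7973 tested genes in all. Tyms and Cdkn1a gave only dim signals, and for Ccnb1 no probe set naming that gene alone was used here. The comparison was SCARKO against Control, with 5 pools of testis RNA each. SCARKO mice lack the androgen response of Sertoli cells selectively. The sample descriptions mark Control mice as AMHCre, for a Cre transgene under the promoter of the anti-Müllerian hormone gene. That promoter is active in Sertoli cells, and the transgene also drives the deletion in SCARKO mice. Each pool joined RNA from 1 testis of each of 3 mice, and a SCARKO and a Control pool with the same number came from littermates, so replicates measure how pools from different litters vary. Genotypes were taken from the sample titles. In pairs 1 to 4 the descriptions of all 8 arrays contradict the titles, so there the AMHCre mark stands with arrays titled SCARKO. In pair 5 titles and descriptions match.

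The cell cycle is driven by kinases that work only when bound to a cyclin. D-type cyclins with Cdk4 open the way through G1, E-type and A-type cyclins with Cdk2 carry cells into and through DNA replication, and cyclins A and B with Cdk1 bring them into mitosis, where the anaphase-promoting complex ends the process by having cyclins and securin destroyed. In the early postnatal testis the dividing cells include immature Sertoli cells, spermatogonia and cells of the interstitium, and the oldest germ cells have entered meiosis, which uses many of the same proteins. In RNA of a whole organ, fewer cells of a dividing type and less RNA per cell cannot be told apart.

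Array signals were on a common scale, with a mean trimmed by 2% at each end of 100 on all 10 arrays and a median signal of 36.8 to 37.6 in SCARKO pools and 36.4 to 37.0 in Control pools. The ratio of 3′ to 5′ signal, a sign of RNA integrity, was 0.618 to 0.657 for the Gapdh control probe sets in SCARKO pools against 0.611 to 0.640 in Control pools. For beta-actin it was 1.16 to 1.32 in SCARKO pools against 1.21 to 1.30 in Control pools. Markers of Sertoli cells (Sox9, Wt1, Gata4), spermatogonia (Zbtb16, Gfra1, Kit), meiotic germ cells (Sycp3, Stag3, Dmc1) and Leydig cells (Cyp11a1, Cyp17a1, Star) were all among the tested genes. Of the markers listed, 13 of 14 Sertoli, 13 of 16 spermatogonial, 13 of 19 meiotic and 7 of 10 Leydig genes were tested. Being tested means only that a probe set was bright enough, so this is a weak check of the labelled tissue.

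Promoters of this group of genes share short sequences. The CCAAT box (CCAAT, bound by the factor NF-Y) and the CHR element (TTTGAA, through which the DREAM complex acts) are known from genes of mitosis, and E2F sites from genes of S phase. In the promoter table of RefSeq (GRCm38.p6), 42 of the 52 genes had an entry. With both strands read, a CHR stood in 11 of 16 mitotic promoters (68.8%), 1 of 13 S-phase promoters (7.69%) and 4893 of all 27025 promoters (18.1%). A CCAAT box stood in 12 of the mitotic promoters (75.0%), 8 of the S-phase promoters (61.5%) and 37.9% of all promoters. An E2F site, written as TTTGGCGC, TTTCGCGC, TTTCCCGC or TTTGCCGC, stood in 6 of the S-phase promoters (46.2%), none of the mitotic ones and 2.32% of all promoters. Among the 13 promoters of cyclins, CDKs and inhibitors, 8 held a CCAAT box, 3 a CHR and 2 an E2F site. A match is a description of letters and not evidence of binding. Shown here, 5′ to 3′ in lower case with these motifs in capitals, are Ccnb2 and Ube2c as examples with CCAAT boxes and a CHR, Mcm7 with E2F sites, and Ccng1 and Pttg1, called members that differ in their motifs. The other called members, Cables1, Ccna2 and Tpx2, had no entry in the promoter table. The E2F site and the CCAAT box next to the start of Mcm7 share a base, and 1 of its 2 table entries is shown.
Ccnb2 promoter, chr9:70421505-70421804, strand -: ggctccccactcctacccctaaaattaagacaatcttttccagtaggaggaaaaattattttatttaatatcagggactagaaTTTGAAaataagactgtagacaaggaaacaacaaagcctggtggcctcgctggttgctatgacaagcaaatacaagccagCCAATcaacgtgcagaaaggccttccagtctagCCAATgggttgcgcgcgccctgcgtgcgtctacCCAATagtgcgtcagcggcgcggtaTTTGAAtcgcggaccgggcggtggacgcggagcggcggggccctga
Ube2c promoter, chr2:164769679-164769978, strand +: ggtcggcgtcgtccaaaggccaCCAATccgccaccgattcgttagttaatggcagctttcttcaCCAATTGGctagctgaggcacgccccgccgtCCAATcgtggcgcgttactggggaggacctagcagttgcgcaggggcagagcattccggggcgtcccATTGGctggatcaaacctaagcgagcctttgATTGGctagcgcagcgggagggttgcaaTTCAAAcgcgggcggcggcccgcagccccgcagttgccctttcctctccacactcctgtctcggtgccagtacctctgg
Mcm7 promoter, chr5:138171834-138172133, strand -: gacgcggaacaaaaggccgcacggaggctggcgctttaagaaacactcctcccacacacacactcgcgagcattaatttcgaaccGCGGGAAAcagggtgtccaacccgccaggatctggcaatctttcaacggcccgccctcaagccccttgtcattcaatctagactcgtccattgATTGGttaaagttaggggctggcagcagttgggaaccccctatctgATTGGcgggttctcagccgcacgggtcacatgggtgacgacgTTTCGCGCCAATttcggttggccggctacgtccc
Ccng1 promoter, chr11:40755237-40755536, strand -: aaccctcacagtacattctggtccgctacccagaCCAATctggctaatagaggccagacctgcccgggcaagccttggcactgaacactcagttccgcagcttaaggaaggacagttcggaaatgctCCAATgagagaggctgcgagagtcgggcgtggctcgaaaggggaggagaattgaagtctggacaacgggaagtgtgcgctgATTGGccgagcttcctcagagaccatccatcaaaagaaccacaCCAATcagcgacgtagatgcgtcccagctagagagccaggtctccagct
Pttg1 promoter, chr11:43425932-43426231, strand -: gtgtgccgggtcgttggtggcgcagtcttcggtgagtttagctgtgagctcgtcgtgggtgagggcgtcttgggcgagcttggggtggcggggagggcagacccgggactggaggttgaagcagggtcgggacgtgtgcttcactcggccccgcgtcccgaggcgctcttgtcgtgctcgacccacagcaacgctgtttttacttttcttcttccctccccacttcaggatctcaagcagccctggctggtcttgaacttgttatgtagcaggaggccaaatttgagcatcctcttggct
Ccnb2 held 3 CCAAT boxes and 2 CHR elements, and Ube2c 6 CCAAT boxes, a pair of which overlap on opposite strands, and 1 CHR. Ccng1 held 4 CCAAT boxes and neither of the other motifs, and the Pttg1 window held none of the 3 motifs.

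Few of these genes differed between genotypes, and most of the differences were small. Of the 49 tested, Cables1, Ccng1, Ccna2 and Pttg1 rose in SCARKO testes and Tpx2 fell, by limma at an adjusted p under 0.05. That is 4 rises (2.17% of all tested genes rose) and 1 fall (3.52% of all tested genes fell). The direction leaned upwards, with a positive log2 fold change for 42 of 49 members (85.7%) against 4382 of 7973 genes (55.0%). The median was 0.08 against 0.02 on the log2 scale. Members were chosen with earlier results of these data known, so the lean describes this list. The lean was weaker without pair 4, where 34 of the 49 were positive. Without the filter on dim probe sets limma called none of the 5 (14 members higher and 2 lower at an unadjusted p under 0.05), and over the whole array it then called 38 of 22626 probe sets, against 704 of 13576 with the filter. With genotypes from the descriptions 8 of the 49 were positive and none was called (0 higher and 2 lower at an unadjusted p under 0.05), as was none of all 13576 probe sets, of which 611 passed an unadjusted p of 0.05.

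**Figure D1:**
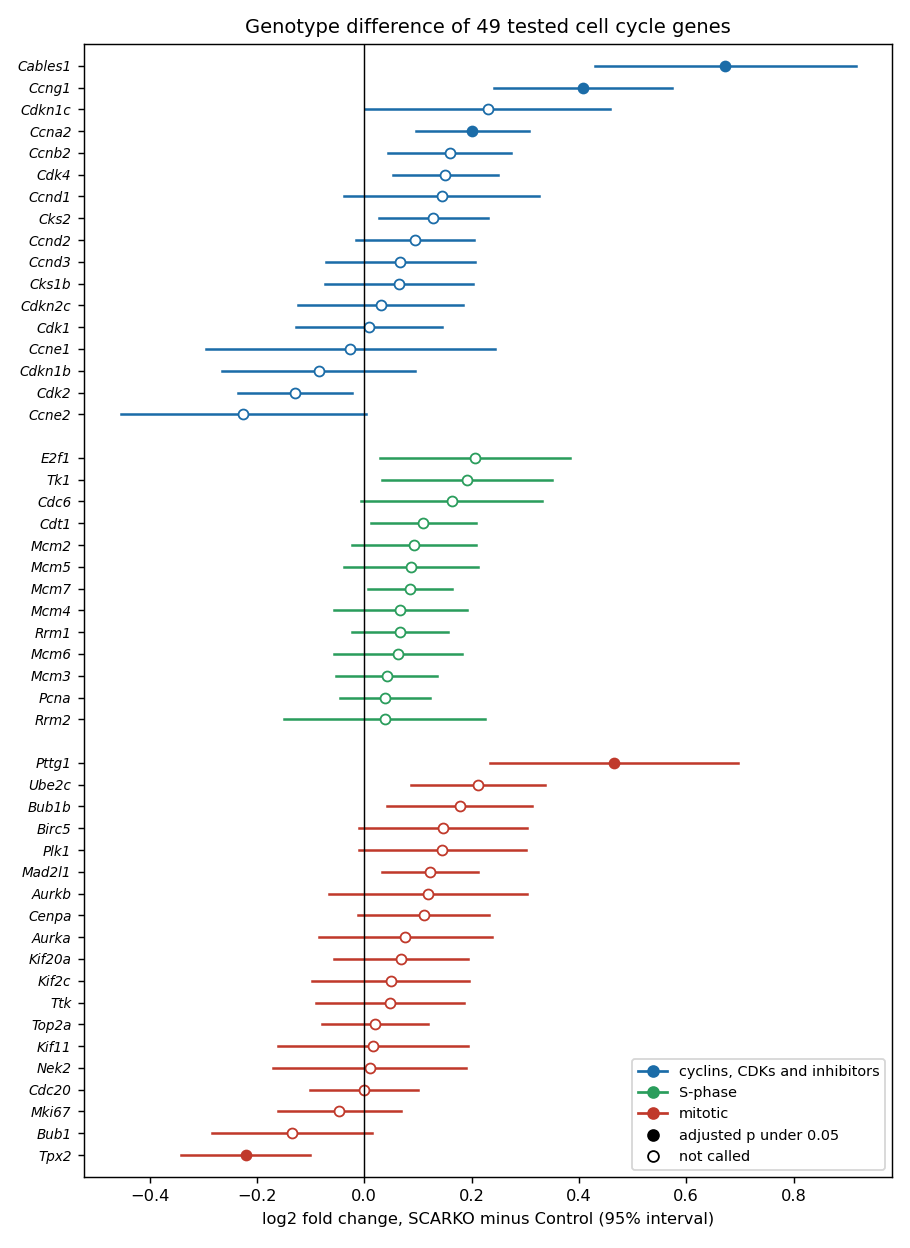
Log2 fold changes (SCARKO minus Control, horizontal axis, with 95% intervals from limma) of the 49 tested cell cycle genes, grouped by class and coloured by it. Filled points mark the 5 called genes, from Cables1 at 0.67 down to Tpx2 at -0.22, and the interval of most other genes spans 0.

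Cables1 had the largest difference of all the members. It encodes an adaptor that links CDKs to the kinases that regulate them (gene ID 63955). Its signals in SCARKO pools 1 to 5 were 62.5, 70.9, 54.5, 47.1 and 74.2, against 39.8, 45.4, 41.5, 33.1 and 33.0 in Control pools. Every SCARKO pool was brighter than every Control pool. The means were 61.8 ± 11.3 in SCARKO and 38.6 ± 5.42 in Control (SD, n = 5 each), a log2 fold change of 0.67 (SE 0.11, 95% interval 0.43 to 0.92, limma adjusted p = 0.0059), or 1.59-fold. The within-pair differences were 0.65, 0.64, 0.39, 0.51 and 1.17 on the log2 scale, highest in pair 5, the pair whose titles and descriptions match.

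Ccng1 rose as well. It encodes cyclin G1, a cyclin without a clear CDK partner that is a classical target of p53 (gene ID 12450). Signals in SCARKO pools were 269.6, 341.2, 316.9, 315.2 and 240.2, against 205.2, 308.4, 219.7, 190.9 and 202.3 in Control pools. SCARKO was higher in each of the 5 pairs, but the groups overlapped, because pair 2 was bright in both genotypes. The log2 fold change was 0.41 (SE 0.08, limma adjusted p = 0.010). Both other probe sets of Ccng1 were also brighter in SCARKO, by 0.13 and 0.19, and were not called (limma adjusted p = 0.22 and 0.23). Without the littermate block the adjusted p was 0.10, and without pair 3 it was 0.054.

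Ccna2 encodes cyclin A2, which serves both S phase and entry into mitosis (gene ID 12428). Its signals were 408.7, 391.7, 407.3, 426.8 and 409.5 in SCARKO pools, against 389.4, 358.3, 342.0, 350.8 and 338.7 in Control pools. The groups did not overlap, although the lowest SCARKO pool was only just above the highest Control pool. The change was 0.20 on the log2 scale (SE 0.05, limma adjusted p = 0.034), and the dimmer probe set of the gene rose by 0.24 (adjusted p = 0.041). Within pairs the difference ran from 0.07 in pair 1 to 0.28 in pair 4, and the call ended without pair 3, 4 or 5, at adjusted p values up to 0.13.

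The other cyclins and kinases were not called. Ccnb2, which encodes cyclin B2, averaged 221.7 ± 12.2 in SCARKO and 198.7 ± 12.7 in Control (SD, n = 5 each), a log2 fold change of 0.16 (limma adjusted p = 0.11). Cdk4, the kinase partner of D-type cyclins, had signals of 319.6, 309.0, 299.0, 296.1 and 294.4 in SCARKO pools, against 281.7, 273.3, 268.9, 277.9 and 265.1 in Control pools. These groups did not overlap either, yet the log2 fold change of 0.15 missed the threshold (limma adjusted p = 0.079). Its other probe sets read 0.04 and 0.19. The D-type cyclin genes had log2 fold changes of 0.14 (Ccnd1), 0.09 (Ccnd2) and 0.07 (Ccnd3), and all 3 kept probe sets of Ccnd1 and all 7 of Ccnd2 had positive values. Cks1b (0.06) and Cks2 (0.13), small proteins that bind CDKs, also had positive values. Cdk1, the kinase of mitotic entry, averaged 206.2 ± 16.9 in SCARKO and 205.1 ± 18.2 in Control (SD, n = 5 each), with a 95% interval of the log2 fold change from -0.13 to 0.14.

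A smaller set had negative values, among them the kinase and cyclins that start S phase. Cdk2 had 268.3, 270.0, 287.0, 296.1 and 356.5 in SCARKO pools, against 312.5, 286.4, 333.8, 312.9 and 367.0 in Control pools. It was lower in SCARKO in each of the 5 pairs, but the groups overlapped and the log2 fold change of -0.13 was not called (limma adjusted p = 0.15). For the E-type cyclins that partner Cdk2 the values were -0.22 for Ccne2 (95% interval -0.45 to 0.00) and -0.03 for Ccne1. The inhibitor genes did not move together. Cdkn1c, which encodes p57, had 0.23, Cdkn2c, which encodes p18, had 0.03, and Cdkn1b, which encodes p27, had -0.08, none of them called. Cdkn1a, which encodes p21 and is another p53 target, stayed under the brightness limit, at 14.5 to 26.8 in SCARKO pools against 14.2 to 22.0 in Control pools on its brighter probe set. At the limit, the dimmest kept probe set of a member (of Ccnd2) had a geometric mean signal of 21.8 and the brightest one left out (of Cdkn1a) 19.1.

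**Figure D2:**
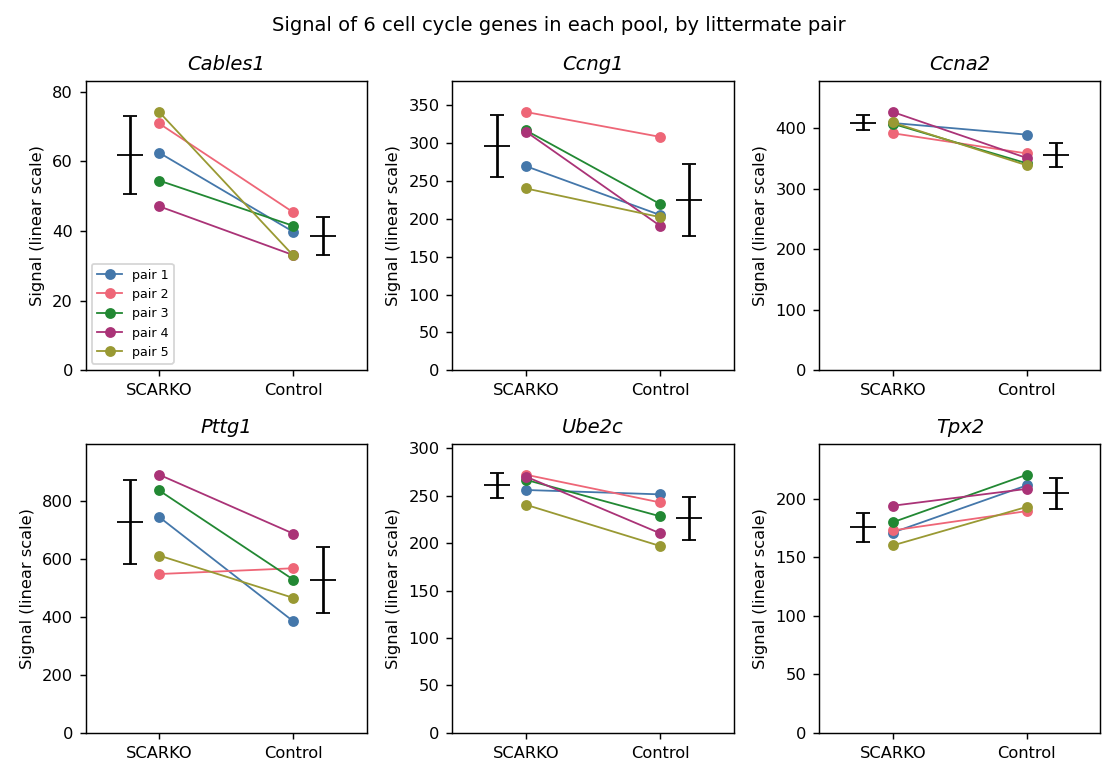
Signal on a linear scale starting at 0 (vertical axes) of 6 genes in each SCARKO pool (left) and its littermate Control pool (right), with a line for each pair and mean ± SD bars beside each group. The lines of Cables1, Ccng1, Ccna2 and Ube2c all fall towards Control, those of Tpx2 all climb, and 1 line of Pttg1, that of pair 2, climbs slightly.

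The genes of S phase leaned slightly upwards and none was called. On the brightest probe set of each, all 13 tested members had a positive log2 fold change, from 0.04 to 0.21, with a median of 0.09. E2f1 and Rrm2 each had another probe set with a negative value. At an unadjusted p under 0.05 there were 4 in limma (30.8%), against 21.7% of all tested genes. Tk1, which encodes the thymidine kinase of the salvage route, had 84.7, 80.1, 86.9, 85.9 and 75.0 in SCARKO pools, against 78.9, 77.8, 75.0, 67.8 and 62.7 in Control pools. SCARKO was higher in every pair, by 0.19 on average (limma adjusted p = 0.16). E2f1, the transcription factor that switches on many genes of S phase, read 76.5 ± 7.96 in SCARKO and 66.1 ± 4.56 in Control (SD, n = 5 each), a log2 fold change of 0.21 (limma adjusted p = 0.17). Its dimmer probe set gave -0.39, so the gene has no settled direction.

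Genes that license and unwind origins of replication were close together. Cdt1, which loads the helicase, had 449.7, 445.9, 431.7, 430.6 and 392.9 in SCARKO pools, against 403.9, 430.2, 370.4, 405.0 and 383.9 in Control pools. The log2 fold change was 0.11 (limma adjusted p = 0.19) with SCARKO higher in each pair. Cdc6, which works with Cdt1, had 0.16. The helicase subunits Mcm2 to Mcm7 had log2 fold changes of 0.09, 0.04, 0.07, 0.09, 0.06 and 0.09 in that order. Mcm7, whose promoter is shown above, read 924.8 ± 18.4 in SCARKO and 872.6 ± 44.3 in Control (SD, n = 5 each; limma adjusted p = 0.20). Pcna, the sliding clamp of the polymerases, differed by 0.04 with a 95% interval from -0.04 to 0.12, and the ribonucleotide reductase genes Rrm1 and Rrm2 by 0.07 and 0.04. Tyms, the thymidylate synthase gene, read 0.3 to 12.1 in SCARKO pools and 0.4 to 10.4 in Control pools over its 3 probe sets and was not tested. Without pair 4 the median of this class was 0.04, as it was for the mitotic genes (0.07 over all pairs).

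Among mitotic genes 1 rose and 1 fell. Pttg1 encodes securin, which holds back the separation of sister chromatids until the anaphase-promoting complex removes it (gene ID 30939). Its signals were 745.1, 548.4, 836.7, 891.1 and 612.2 in SCARKO pools, against 385.6, 568.2, 529.4, 688.0 and 466.2 in Control pools. SCARKO was higher in 4 of the 5 pairs and the groups overlapped widely, with the difference ranging from 0.95 in pair 1 to -0.05 in pair 2. The log2 fold change was 0.47 (SE 0.11, 95% interval 0.23 to 0.70, limma adjusted p = 0.028). A dimmer probe set of Pttg1 was higher in all 5 pairs by a mean of 0.22 (adjusted p = 0.069). Leaving out pair 1, 3, 4 or 5 ended the call (adjusted p = 0.060 to 0.12), as did leaving out the littermate block (adjusted p = 0.13).

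Tpx2 fell on both of its probe sets. It encodes a spindle assembly factor that binds and activates the kinase Aurora A (gene ID 72119). Its brighter probe set had 171.2, 173.0, 180.0, 194.1 and 160.2 in SCARKO pools, against 211.5, 189.5, 220.6, 208.5 and 193.1 in Control pools. SCARKO was lower in every pair, and the groups overlapped because SCARKO pool 4 was just above Control pools 2 and 5. The log2 fold change was -0.22 (SE 0.05, limma adjusted p = 0.042), against -0.58 on the dim probe set (20.9 ± 3.39 in SCARKO, 31.2 ± 2.92 in Control, SD, n = 5 each, adjusted p = 0.013). Aurka, the gene of its partner Aurora A, had 0.08 and was not called. Leaving out pair 1, 3, 4 or 5 ended the call of the brighter probe set (adjusted p = 0.052 to 0.16), and so did leaving out the littermate block (adjusted p = 0.10).

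Genes of the spindle checkpoint and of the anaphase-promoting complex had values on both sides of 0. Ube2c, the ubiquitin-conjugating enzyme of that complex, had 256.1, 272.2, 266.8, 270.2 and 240.5 in SCARKO pools, against 251.5, 243.0, 228.4, 210.5 and 197.1 in Control pools. SCARKO was higher in each pair and the log2 fold change of 0.21 lay just outside the threshold (limma adjusted p = 0.055). It was called without pair 1 (adjusted p = 0.044) and with the lowest 60% of probe sets left out (adjusted p = 0.048). Cdc20, the activator of the complex that Ube2c serves, averaged 696.5 ± 35.1 in SCARKO and 696.3 ± 31.6 in Control (SD, n = 5 each), with a 95% interval of the log2 fold change from -0.10 to 0.10. The other kept probe sets of Cdc20 read -0.02 and -0.08. Among checkpoint genes, Mad2l1 had 416.3, 463.7, 457.7, 439.7 and 457.8 in SCARKO pools, against 396.5, 412.9, 431.1, 397.4 and 414.3 in Control pools. It was higher in SCARKO in all 5 pairs (log2 fold change 0.12, limma adjusted p = 0.11). The checkpoint kinase genes were Bub1b at 0.18 (adjusted p = 0.13), whose groups did not overlap, Ttk at 0.05, and Bub1 at -0.13 (adjusted p = 0.29).

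The remaining mitotic genes were close to 0 or slightly positive. The kinase gene Plk1 and Birc5, which encodes survivin, both had 0.15, and Aurkb, which encodes Aurora B, had 0.12. The centromeric histone gene Cenpa had 0.11 and Nek2, a kinase of centrosomes, had 0.01. The kinesin motor genes had 0.07 (Kif20a), 0.05 (Kif2c) and 0.02 (Kif11). Mki67, the common marker of cycling cells, had 216.3, 227.3, 231.1, 230.5 and 204.5 in SCARKO pools, against 242.6, 231.1, 224.9, 226.0 and 220.6 in Control pools. SCARKO was lower in 3 of the 5 pairs and the ranges overlapped, with a log2 fold change of -0.05 and a 95% interval from -0.16 to 0.07. Top2a, which encodes the topoisomerase that untangles chromosomes, differed by 0.02, with an interval from -0.08 to 0.12.

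Consistency over pairs gave a similar picture. SCARKO was higher in all 5 pairs for 13 of the 49 members (26.5%), against 11.0% of all tested genes, and lower in all 5 pairs for Cdk2 and Tpx2 (4.08%), against 8.78% of all tested genes. Of the 13, Cables1, Ccna2, Ccnb2, Ccng1 and Cdk4 are cyclins, kinases or adaptors, Cdt1, Mcm2, Mcm7 and Tk1 act in S phase, and Bub1b, Mad2l1, Plk1 and Ube2c in mitosis. The pairs were not alike. The number of members with a higher SCARKO signal was 31, 26, 36, 43 and 28 in pairs 1 to 5, and their median difference 0.04, 0.02, 0.11, 0.21 and 0.03 on the log2 scale. Pair 4 was the highest for every class, with medians of 0.19 for cyclins, CDKs and inhibitors, 0.26 for S phase and 0.23 for mitosis. In pairs 2 and 5 the mitotic median lay just under 0, at -0.05 and -0.01.

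**Figure D3:**
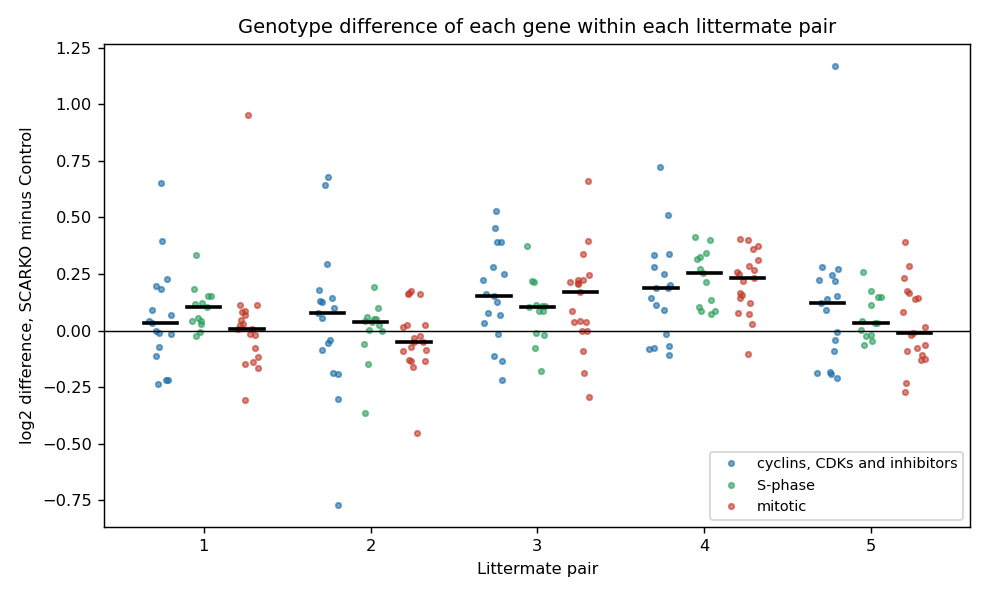
Log2 difference between SCARKO and Control (vertical axis) of each of the 49 genes within each littermate pair (horizontal axis), by class, with black bars at the class medians. The medians of pair 4 lie at 0.19 to 0.26, above those of the same class in the other pairs.

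Litters were also compared with each other. In the same fit, an F test over the 4 pair coefficients asked whether a gene's level differed between pairs. The fit takes such a shift to be the same in both genotypes. Litter cannot be told apart from anything else shared by both arrays of a pair, and pair 5 is the pair without a named processing tool. Limma called 0 of the 49 members (0.452% of all tested genes were called), with 14 members (28.6%) against 1314 genes (16.5%) at an unadjusted p under 0.05. Pcna had litter means of 1229, 1256, 1210, 1189 and 1028 in pairs 1 to 5, each the geometric mean of both pools (unadjusted p = 0.0037, adjusted p = 0.11). Cdk2 had 289.6, 278.1, 309.5, 304.4 and 361.7 (unadjusted p = 0.0039, adjusted p = 0.11). Pair 5 was thus lowest for Pcna and highest for Cdk2. It was lowest as well for Rrm1 (407.3, against 455.1 to 506.2 in the other litters), Bub1 (284.0, against 338.2 to 407.8) and Top2a (454.0, against 521.2 to 564.0). Ccng1 stood apart in pair 2, with a litter mean of 324.4 against 220.4 to 263.9 elsewhere (adjusted p = 0.14).

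**Figure D4:**
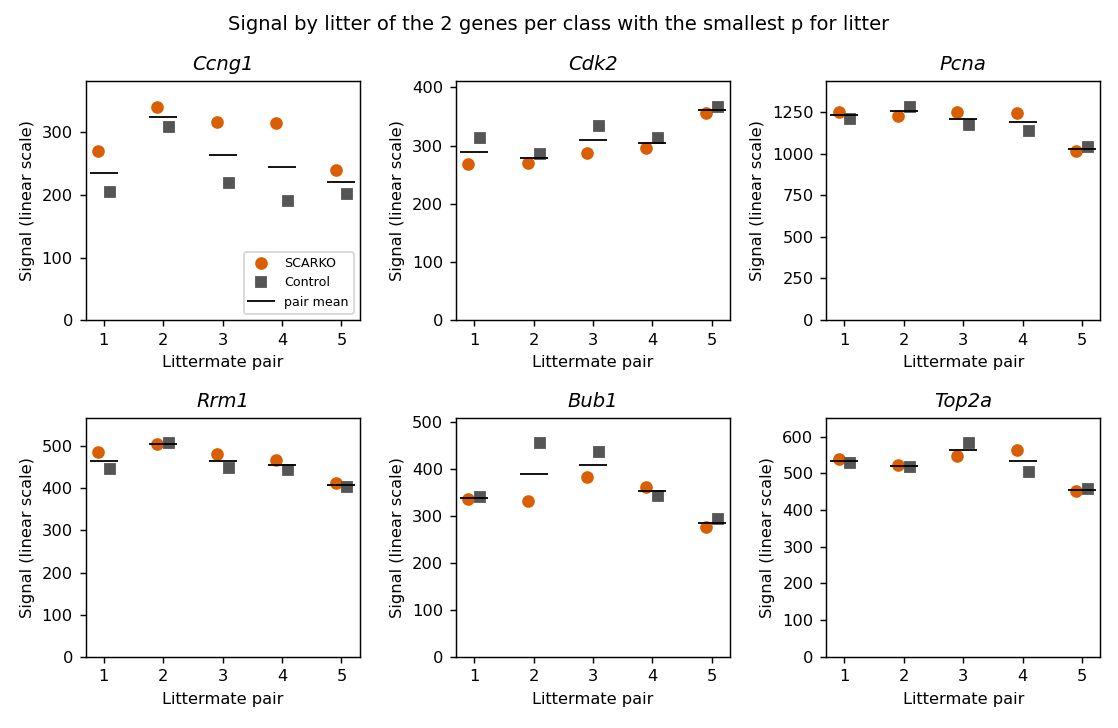
Signal on a linear scale starting at 0 (vertical axes) of 6 genes in the SCARKO pool and the Control pool of each littermate pair (horizontal axes), with bars at the geometric mean of each pair. In pair 5 both pools are low for Pcna, Rrm1, Bub1 and Top2a and high for Cdk2, and in pair 2 both are high for Ccng1.

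Beyond the 52 genes, 3 further lists covered the rest of the machinery. Among 41 tested genes of DNA replication 1 rose and none fell, with a median log2 fold change of 0.03. Among 48 tested genes of mitosis none rose and 3 fell (median 0.03), and among 41 tested genes of the RB, E2F and p53 pathways and checkpoints 1 rose and 3 fell (median 0.01). Over all tested genes 2.17% rose, 3.52% fell and the median was 0.02. Log2 fold changes were positive for 63.4%, 66.7% and 51.2% of the 3 lists in that order, against 85.7% of the members and 55.0% of all tested genes. SCARKO was higher in all 5 pairs for 7.32%, 10.4% and 9.76%, against 26.5% of the members and 11.0% of all tested genes. Without the filter on dim probe sets Racgap1 was still called (adjusted p = 0.047) and the other 7 of these 8 called genes were not (adjusted p = 0.052 to 0.20).

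Racgap1 showed the largest of these differences relative to its error. It encodes a subunit of centralspindlin, which sets the cleavage plane in cytokinesis (gene ID 26934). Signals were 243.1, 230.2, 250.0, 257.7 and 214.4 in SCARKO pools, against 347.0, 307.6, 367.0, 337.9 and 339.7 in Control pools. The highest SCARKO pool lay well under the lowest Control pool. The log2 fold change was -0.51 (SE 0.05, limma adjusted p = 0.00041), and the other probe set of the gene gave -0.79. It was called in each fit with 1 pair left out (adjusted p = 0.00063 to 0.0039).

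The other mitotic genes that fell were Smc4, a condensin subunit, and Zwilch, which helps build the kinetochore's checkpoint complex. Smc4 averaged 616.2 ± 125.2 in SCARKO and 743.8 ± 124.3 in Control (SD, n = 5 each; log2 fold change -0.28, limma adjusted p = 0.014), and its 3 probe sets ran from -0.28 to -0.05. Zwilch averaged 120.9 ± 10.9 in SCARKO and 144.9 ± 10.9 in Control (log2 fold change -0.26, limma adjusted p = 0.018). Both were lower in all 5 pairs although the groups overlapped, and without the littermate block neither was called (adjusted p = 0.31 for Smc4 and 0.091 for Zwilch). Smc4 also lost its call without pair 4 or 5 (up to 0.059) and Zwilch without pair 1, 3 or 5 (up to 0.076).

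Of the growth inhibitors, Cdkn2b, which encodes the CDK4 inhibitor p15, had 23.3, 24.8, 21.5, 22.5 and 16.4 in SCARKO pools, against 31.8, 26.5, 48.5, 35.2 and 37.6 in Control pools. All SCARKO pools lay under all Control pools, at signals close to the brightness limit (log2 fold change -0.71, SE 0.16, limma adjusted p = 0.028). Gadd45g, a stress gene that restrains CDK1, averaged 30.7 ± 5.43 in SCARKO and 44.2 ± 4.34 in Control (log2 fold change -0.54, limma adjusted p = 0.039). Cdkn2d, which encodes the related inhibitor p19 and is known from male germ cells, averaged 128.0 ± 11.2 in SCARKO and 152.3 ± 16.1 in Control (SD, n = 5 each; log2 fold change -0.25, limma adjusted p = 0.027). Each of these 3 was lower in SCARKO in every pair, and each call ended without pair 1, 3, 4 or 5. Without the littermate block the call of Cdkn2d ended as well (adjusted p = 0.15). With 16 added before log2, which damps dim signals, the changes of Cdkn2b and Gadd45g were -0.45 and -0.37.

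The rises were those of Uhrf1, which guides the maintenance of DNA methylation at replication forks, and Mycn, a growth-promoting transcription factor. Uhrf1 read 205.9, 236.4, 217.6, 206.1 and 229.1 in SCARKO pools, against 182.4, 200.9, 191.9, 166.6 and 184.2 in Control pools. Its groups did not overlap (log2 fold change 0.24, limma adjusted p = 0.020). Mycn read 252.2, 279.0, 272.6, 269.6 and 286.0 in SCARKO pools, against 225.8, 234.4, 226.3, 232.3 and 220.3 in Control pools, again without overlap (log2 fold change 0.25, limma adjusted p = 0.014). Uhrf1 lost its call without pair 3, 4 or 5 (adjusted p up to 0.084) and without the littermate block (0.060), and Mycn without pair 3 or 5 (up to 0.065).

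**Figure D5:**
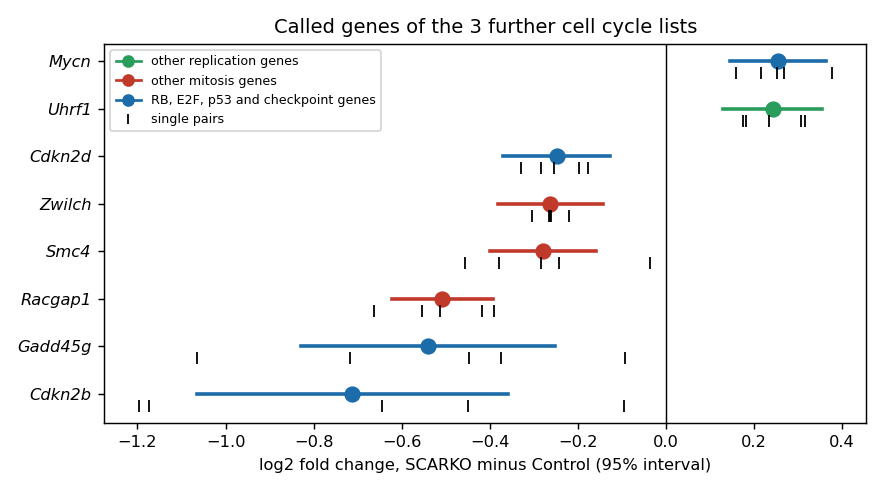
Log2 fold changes (SCARKO minus Control, horizontal axis) with 95% intervals of the 8 called genes of the 3 further cell cycle lists, with the 5 within-pair differences as ticks under each. Mycn and Uhrf1 lie above 0 and the other 6 below it, with Racgap1 at -0.51 having the interval farthest from 0 relative to its width.

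Markers of cell types were read beside these genes. Of 13 tested markers of meiotic germ cells 0 rose and 3 fell (Stag3, Tex15 and Hspa2), 12 had a negative log2 fold change, and the summed signal was 2526 to 3477 in SCARKO pools against 2834 to 4494 in Control pools. Their median difference in pairs 1 to 5 was -0.05, -0.45, -0.50, -0.04 and -0.26. Meiotic markers Msh4 and Ccna1 were too dim to be tested. Of 13 tested markers of spermatogonia none was called by limma (15.4% had an unadjusted p under 0.05), and their summed signal was 3834 to 4107 in SCARKO pools against 3532 to 4018 in Control pools. Of 13 tested Sertoli markers 2 rose (Fshr, Kitl) and 3 fell (Nr0b1, Cldn11, Gata1), with a summed signal of 6122 to 6410 in SCARKO pools against 6283 to 6719 in Control pools. The summed signal of the 49 cell cycle members was 14359 to 16214 in SCARKO pools against 13635 to 15488 in Control pools, ranges that overlap. Like the other sums here, these ranges leave the littermate pairing out of account, and bright genes weigh most in them. None of 7 Leydig, 9 myoid, 8 macrophage and 6 endothelial markers was called by limma. In that order, 28.6%, 33.3%, 25.0% and 16.7% of them had an unadjusted p under 0.05, against 21.7% of all tested genes. That share was 69.2% for meiotic and 53.8% for Sertoli markers. Log2 fold changes were positive for 4 of the Leydig, 1 of the myoid, 7 of the macrophage and 3 of the endothelial markers. They were positive for 11 of the 13 spermatogonial markers, against 55.0% of all tested genes. The myoid sum was 3010.4 to 3469.9 in SCARKO pools against 3389.3 to 3840.5 in Control pools. Over all tested genes 2.17% were called as rises and 3.52% as falls. The part of these cell types in the differences of the cell cycle genes was not tested.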

How the data were processed

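Whole-testis RNA was measured on Affymetrix arrays, 1 per pool. The authors deposited intensity values on a linear scale for 22690 probe sets. MAS5 was named for 8 arrays, per the submitters' processing notes, with version and settings not given in the sources used here, and no tool for pair 5. Groups and pair numbers came from the titles, and the littermate pairing from the labels' protocols. Same-numbered pools deviated together from their group means, with correlations of 0.27, 0.19, 0.19, 0.11 and 0.39 for pairs 1 to 5. Differently numbered pools reached at most -0.008, 0.08, 0.11, 0.11 and 0.01 in the same order. In pair 4 the labelled partner (0.1093) and the best other match (0.1091) were almost equal. For that pair the correlations thus do not single out the labelled partner, and its pairing rests on the protocols. The targeted gene is not reported here.

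Probe sets were named by the platform annotation with current symbols looked up by gene identifier: 20393 probe sets named 1 gene, 691 several and 1542 none. Values under 1 were set to 1 and log2 taken. A filter on mean log2 signal dropped the dimmest 40% (geometric mean under 19.3) and kept 13576. Limma 3.58.1 in R 4.3.3 fitted genotype with the pair as a block and an intensity trend in the variance, two-sided, and p-values were adjusted over these 13576 by the Benjamini-Hochberg method. It called 704. The method was tested on simulated data. Where several kept probe sets named a gene, the brightest stood for it. Intensities carry no read depth, and precision is limited by the 5 arrays per group.

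Members and lists were chosen with earlier results of these data known. The genes singled out were called members, the 4 members of each class with the smallest p for genotype and the 2 with the smallest p for litter, and the called genes of the further lists. Mki67, Cdk1, Cdc20, Ccnb2 and Bub1b were added after their values were seen, and the remaining members are given by their fold changes. Alternatives were no filter, the lowest 60% left out, 16 added before log2, quantile normalization, no block, leaving out each pair, and genotypes from the descriptions.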

Additional observations from a re-analysis of the deposited data

Results flagged for a closer look

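With 17 genes in each genotype, 34 groups of 5 pools were examined. In 2 groups a pool's gap to its nearest neighbour was a large share of the group's range. For genes chosen without regard to their values, a threshold of 0.05 would give 1.7 by chance. These genes were picked by their p for genotype or litter, Pcna and Ccng1 among the litter picks, so that figure is no yardstick here. Pcna had a signal of 1018.9 in SCARKO pool 5, far under the other SCARKO pools, and its Control littermates were also the lowest of their group at 1037.3. Ccng1 had a signal of 308.4 in Control pool 2, far above the other Control pools, and its SCARKO littermates were also the highest of their group at 341.2.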

How the results depend on the processing

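The reported fit called 4 members higher and 1 lower. Quantile normalization, 16 added before log2 and the lowest 60% left out gave 4 and 1 as well, the last with Ube2c in place of Cables1, which was then too dim. With no replicate block the counts were 2 higher (Cables1, Ccna2) and 0 lower, with 1 lower member at an unadjusted p under 0.05. Limma called 0 and 0 without the filter on dim probe sets, with 14 higher and 2 lower at an unadjusted p under 0.05. It also called 0 and 0 with genotypes from the descriptions for pairs 1 to 4, with 0 and 2 at an unadjusted p under 0.05. Over all 13576 probe sets that setting called 0, against 704 with the titles. With the titles, the differences of pair 5, whose labels match, correlated with the mean differences of pairs 1 to 4 at r = 0.50 over all kept probe sets (a description, since probe sets are not replicates). With 1 pair left out, the counts ran from 1 to 4 higher and from 0 to 1 lower. Cables1 was called in each of those 5 fits (adjusted p = 0.013 to 0.025) and not without the filter (adjusted p = 0.10). Fewer pools enter a fit with a pair left out. Without the filter more probe sets share the adjustment, and the intensity trend in the variance is fitted over the dim ones too. The part of each in the lost calls was not tested. Class medians stayed positive with titles as genotypes, under each alternative fitted for them, at 0.07 to 0.12 for cyclins, CDKs and inhibitors, 0.04 to 0.10 for S phase and 0.04 to 0.10 for mitosis. The number of members called between litters was 0 in each fit with the block. Of the named genes, Top2a changed sign, ranging from -0.0165 (without pair 4) to 0.0477 (without pair 3), and the cause was not tested.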
